A study of Mus musculus with 10 samples.

Results

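A set of 10 genes of the Wnt pathway was followed in single cells of 2 mouse skeletal lineages. The 10 are *Frzb*, *Dkk1*, *Dkk2*, *Dkk3* and *Apcdd1*, which encode antagonists, *Fzd1*, *Fzd5* and *Fzd9*, which encode receptors, *Ctnnb1*, which encodes β-catenin, and *Axin2*, a target of the pathway. They were taken by symbol from the 29183 genes listed for both lineages, and 9 of the 10 had at least 1 UMI in a kept cell. *Grem1-TdT* mice (C57BL/6) carry a tamoxifen-dependent Cre driven by *Grem1* (*Grem1-creERT*) and a Cre-activated tdTomato reporter. They were given tamoxifen chow for 2 weeks from an age of 5 to 6 weeks, and red cells were sorted from excised articular cartilage and growth plate of the hind limb. *Lepr-TdT* mice (C57BL/6, age paired) carry the same kind of reporter with a constitutive *Lepr-cre*, and red cells were sorted from digested whole bones after removal of CD45, Ter119 and CD31 positive cells. The removal step is given for *Lepr-TdT* mice alone, so lineage, tissue, digestion, tamoxifen and sorting cannot be told apart in a comparison of the lineages. The cells were put into 96-well plates, and each labelled sample is 1 plate, with 8 *Grem1*-lineage plates (1, 2 and 4 to 9) and 2 *Lepr*-lineage plates (1 and 2). Allocation to plates was random according to the labels, and nothing ties a plate to an animal or to 1 of the excised tissues. P-values over plates thus measure the spread between plates, which may be technical.

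Wnt ligands bind Frizzled receptors and LRP co-receptors, which stops a cytoplasmic complex built on Axin and APC from destroying β-catenin. β-catenin then enters the nucleus and acts with TCF/LEF factors on target genes, among them *Axin2*, whose product feeds back on the complex. Secreted antagonists act outside the cell, either by binding the ligand, as FRZB does, or by binding the co-receptors, as DKK1 and DKK2 do. In cartilage the pathway is known as a regulator of chondrocyte maturation, and FRZB was first described as a cartilage protein.

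Counts were unique molecular identifiers (UMIs), which count PCR copies of 1 molecule once. Of 768 *Grem1*-lineage wells 684 were kept and of 162 *Lepr*-lineage wells 160, with a minimum of 350 detected genes. The *Grem1*-lineage cells were split by transcripts that are no members. In the *Clu* group (414 cells, 43 to 68 a plate) the UMIs of *Clu*, *Cilp* and *1500015O10Rik* together exceeded those of *Cnmd*, and in the *Cnmd* group (270 cells, 26 to 40 a plate) they did not. The split was made cell by cell, and the labels do not give the tissue that a cell came from. The paper names *Clu* for an articular cluster and *Cnmd* for growth plate clusters, but whether the groups follow the tissue was not tested. A plate held 51229 to 78395 UMIs in the *Clu* group, 57206 to 106289 in the *Cnmd* group, and 59981 to 64310 in the *Lepr* lineage over the shared genes. The median cell had 1217 UMIs in the *Clu* group, 2218.5 in the *Cnmd* group and 505 in the *Lepr* lineage, so shares of cells with a UMI are not on the same footing in the 3. Well barcodes repeat between plates (96 in all, each on all *Grem1*-lineage plates, and 70 on both *Lepr*-lineage plates), as a fixed set of well barcodes would give. The cartilage transcript *Cytl1* had a UMI in 768 of 768 *Grem1*-lineage wells and 62 of 162 *Lepr*-lineage wells, and the part of free RNA in the members' counts was not tested.

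The labels were checked against markers. Raw CPM are UMIs relative to the plate's total over the shared genes, not TMM scaled. All 10 listed chondrocyte markers had UMIs in the *Grem1* lineage, at 82820 to 113200 raw CPM a plate, against at most 1415 in the 2 *Lepr*-lineage plates, where *Col9a1* and *Epyc* were at 0. All 6 listed marrow stromal markers had UMIs in the *Lepr* lineage, at 26980 and 38560 raw CPM, against 128.4 to 361.4 in the *Grem1* lineage, where *Esm1* was at 0. *Cxcl12* made up 2954 of the 4048 UMIs in the *Lepr* lineage. *Foxc1* was in a like share of cells of both lineages (136 of 684 *Grem1*-lineage and 32 of 160 *Lepr*-lineage cells). It made up 188 of the 296 UMIs in the *Grem1* lineage. Haematopoietic markers (9 of 10 detected) stood at 6002 and 7302 raw CPM in the *Lepr* lineage despite the sort and at 7.008 to 3898 in the *Grem1* lineage.

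*Frzb* and *Fzd9* carry most of the results below, and *Axin2* is the usual target gene by which the pathway is read, so the bases before their starts are shown. The letters are from RefSeq (GRCm38.p6), from which windows of 8 of the 10 members were used. They are read 5′ to 3′ on the gene's strand from 250 bases before the start, and are cut where a GENCODE exon begins. In the 250 bases the TCF/LEF motif CTTTGAA and its variants ending in GAT, GTA and GTT were searched on both strands (the last, CTTTGTT, is also a SOX motif), and matches would stand in capitals.
Frzb, chr2:80447626-80447646, minus strand: tgcgttgagaccgtttctccc
Fzd9, chr5:135251231-135251297, minus strand: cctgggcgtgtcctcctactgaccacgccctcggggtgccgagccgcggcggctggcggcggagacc
Axin2, chr11:108920099-108920348, plus strand: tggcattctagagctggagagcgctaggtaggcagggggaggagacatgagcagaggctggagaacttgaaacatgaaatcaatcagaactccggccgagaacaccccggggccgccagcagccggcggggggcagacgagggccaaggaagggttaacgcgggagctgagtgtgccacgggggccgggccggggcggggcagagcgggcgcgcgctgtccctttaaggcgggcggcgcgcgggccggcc
None of the 3 windows of 250 bases held a match, nor did those of *Dkk2*, *Ctnnb1*, *Fzd1* and *Fzd5*. *Dkk1* held 2, a CTTTGAA 117 bases and a CTTTGTT 98 bases before the RefSeq start. Both lie inside the span that GENCODE gives to *Dkk1*, which begins further upstream, so they are not upstream of that gene model. Over all 32851 RefSeq windows of this length 14.8% held at least 1. The absence of these letters in a window this short is a description of the window.

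Among the antagonists of the set *Frzb* (chromosome 2, 80411970 to 80447625, minus strand, GRCm38) had the most UMIs, all of them in the *Grem1* lineage. Antagonists listed for the *Lepr* lineage alone, such as *Sfrp4*, could not be ranked with it. *Frzb* had 283 UMIs in 147 of 684 *Grem1*-lineage cells and 0 UMIs in 160 *Lepr*-lineage cells. The share was 21.5% (95% Clopper-Pearson interval 18.5 to 24.8%) in the *Grem1* lineage, and a limit of 3 counts for 0 of 160 cells, a different measure from the interval, allows a share of cells with a UMI of up to 1.875% in the *Lepr* lineage. Both cover counting error alone, and at this depth cells that express a gene can lack a UMI of it. CPM are UMIs relative to the library's total over the shared genes, TMM scaled. The 8 *Grem1*-lineage plates ran from 134.7 CPM (plate 6) over a median of 187.6 to 423.6 (plate 5), and both *Lepr*-lineage plates were at 0. The plates thus did not overlap, and for how many of all genes this holds was not counted. By edgeR's test 28.9% of all genes tested were called in this comparison. With a floor of 3 UMIs per plate, *Frzb* was at least 6.83-fold higher in the *Grem1* lineage (254.6 ± 123.0 CPM, SD, n = 8). It passed edgeR's quasi-likelihood test over 2944 genes (adjusted p = 0.00052), and the two-sided exact permutation test of 2 against 8 plates gave p = 0.0444, with 0.0222 the smallest p that this design can reach. That p was 0.0556 when any 1 *Grem1*-lineage plate other than plate 6 was left out, where 0.0278 is the smallest, and edgeR's test was past the threshold in each of those fits.

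Within the *Grem1* lineage *Frzb* was higher in the *Clu* group. It had 225 UMIs in 109 of 414 *Clu*-group cells and 58 UMIs in 38 of 270 *Cnmd*-group cells. In the *Clu* group the 8 plates ran from 198.2 CPM (plate 8) over a median of 446.9 to 756.1 (plate 5), and plates 4, 5 and 7 were the highest. In the *Cnmd* group they ran from 0 (plate 2) over a median of 74.62 to 185.1 (plate 5). The lowest *Clu*-group plate was above the highest *Cnmd*-group plate by a narrow margin, and on each of the 8 plates the *Clu* group was the higher. Of all genes tested in this comparison 40.9% were called by edgeR's test, and how many had plates that did not overlap was not counted. The mean was 464.5 ± 204.9 CPM against 77.0 ± 60.7 (SD, n = 8), a log2 difference of 2.57 (SE 0.41, edgeR adjusted p = 4.7e-05), and the exact sign-flip permutation test over plates gave p = 0.0078, the smallest p possible.

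The size of this difference moved with the plates and with the split. It was 3.52 on the log2 scale on plates 1, 2 and 4 alone and 2.19 on plates 5 to 9 alone, past the threshold in both (edgeR adjusted p = 0.0035 and 0.00049). With *Clu* alone set against *Cnmd* it was 1.50 (edgeR adjusted p = 0.00079). Osteoblast markers (6 of 6 detected) stood at 35570 and 48820 raw CPM in the *Clu* group of plates 5 and 7, against 1033 to 4886 on the other 6 plates, and in the *Cnmd* group at 920.0 to 6112 apart from 21060 on plate 9. Without plates 5 and 7 the log2 difference of *Frzb* was 2.78 (edgeR adjusted p = 0.00022).

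**Figure D1:**
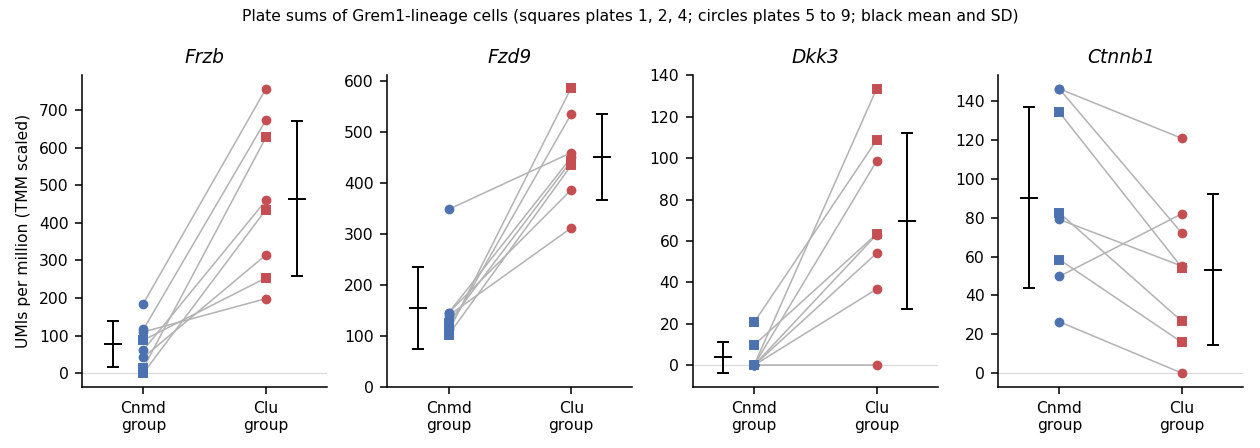
Levels of *Frzb*, *Fzd9*, *Dkk3* and *Ctnnb1* in CPM (TMM scaled, linear axis from 0, with its own range for each gene) in the *Cnmd* group (blue) and *Clu* group (red) of the 8 *Grem1*-lineage plates. Grey lines join the groups of 1 plate, squares are plates 1, 2 and 4, circles plates 5 to 9, and black marks are the mean and SD. *Frzb* and *Fzd9* are higher in the *Clu* group on each plate, *Dkk3* on 7 with the other at 0 in both, and *Ctnnb1* is higher on 1 of 8.

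Per cell *Frzb* was unevenly held. Of the 109 *Clu*-group cells with *Frzb*, 59 had 1 UMI, and the highest cell had 11, which was 4.89% of the group's *Frzb* UMIs. In the *Cnmd* group 29 of 38 had 1 UMI, and 1 cell with 8 held 13.8% of the UMIs. The share of cells was 26.3% (22.2 to 30.9%) in the *Clu* group and 14.1% (10.2 to 18.8%) in the *Cnmd* group, although *Cnmd*-group cells were the deeper ones. After each cell was thinned to 796 UMIs, which left out 60 *Clu*-group and 8 *Cnmd*-group cells, the shares were 21.2% (17.1 to 25.8%) and 6.87% (4.12 to 10.6%). The 47 cells in which the *Clu* side made up under 0.1 of the grouping UMIs had 25.4 raw CPM of *Frzb*, and the other 223 *Cnmd*-group cells had 102.9. On the *Clu* side the level was 453.7 in 181 cells with a side share under 0.9 and 400.9 in 233 cells above it, so *Frzb* differed little within the *Clu* group along the genes of the split.

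The DKK genes were sparse. *Dkk3* (chromosome 7, 112116017 to 112159057, minus strand), whose product is a divergent DKK protein with a less settled role in Wnt signalling, had 35 UMIs in 29 *Clu*-group cells, 3 in 3 *Cnmd*-group cells and 9 in 9 *Lepr*-lineage cells. The *Clu*-group plates ran from 0 (plate 6) over a median of 63.2 CPM to 133.4 (plate 4), and 6 of the 8 *Cnmd*-group plates were at 0 with a highest value of 20.7 (plate 2). The *Clu* group was higher on 7 plates, and on plate 6 both groups were at 0. *Dkk3* did not pass the filter on low counts, so it was tested as a single value, with p = 0.0156 in the exact sign-flip test, the smallest that the 7 plates with a UMI allow. As a share of UMIs it was 14.4 times higher in the *Clu* group (95% exact interval of the counts 4.53 to 73.1). In the fit with no filter its log2 difference was 3.55 (SE 0.68, edgeR adjusted p = 1.1e-05), among 5.62% of 12510 genes called. It was past the threshold with the plate as a block as well. Dropping the filter took the edgeR adjusted p of *Frzb* from 4.7e-05 to 9.5e-17. Adjusted p-values with and without the filter are thus not on the same scale.

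Between the lineages *Dkk3* did not pass the test. The *Lepr*-lineage plates had 36.3 and 76.6 CPM and the *Grem1*-lineage plates 0 to 73.8, with a log2 difference of 0.68 (SE 0.80, edgeR adjusted p = 0.56). Without *Lepr*-lineage plate 2 the log2 value was 0.01. The level in the *Lepr* lineage (56.4 ± 28.5 CPM, n = 2) stood beside 69.7 ± 42.6 in the *Clu* group and 3.80 ± 7.62 in the *Cnmd* group, values scaled in separate fits.

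*Dkk1* (chromosome 19, 30545863 to 30549665, minus strand) and *Dkk2* (chromosome 3, 132085292 to 132180304, plus strand), both secreted ligands of the LRP co-receptors, were near the limit of detection. *Dkk1* had 3 UMIs in 3 *Clu*-group cells on 3 plates and 0 elsewhere. *Dkk2* had 1 UMI in the *Clu* group and 1 in the *Lepr* lineage. *Apcdd1* (chromosome 18, 62922231 to 62961179, plus strand), a membrane-bound inhibitor that is also a target of the pathway, had 0 UMIs in 684 *Grem1*-lineage and 160 *Lepr*-lineage cells, which by the limit of 3 counts allows shares of cells with a UMI, not of cells that express it, of up to 0.439% and 1.875%. No comparison of these 3 was detectable at this depth.

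Among the receptors of the set *Fzd9* (chromosome 5, 135248938 to 135251230, minus strand) had the most UMIs. It had 323 in 225 of 684 *Grem1*-lineage cells (32.9%, interval 29.4 to 36.6%) and 3 in 3 of 160 *Lepr*-lineage cells (1.875%, interval 0.388 to 5.38%). The *Grem1*-lineage plates ran from 209.6 CPM (plate 9) over a median of 281.5 to 429.0 (plate 7). The *Lepr*-lineage plates had 36.3 (plate 1) and 0 (plate 2), so the lineages did not overlap. The share of all genes for which this holds was not counted. The log2 difference, *Lepr* minus *Grem1*, was -3.92 (SE 0.61, edgeR adjusted p = 0.0002), with p = 0.0222 in the exact permutation test. As a share of UMIs *Fzd9* was 11.3 times higher in the *Grem1* lineage (95% exact interval of the counts 3.84 to 55.2). All 3 *Lepr*-lineage UMIs were on plate 1, and the log2 difference was -3.04 without plate 2 and -5.08 with the gene minimum taken over shared genes. Without plate 1 the lineage was at 0 and the fitted value was -8.29, which depends on the prior count and is no measure of size. All 3 were past the threshold.

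*Fzd9* was higher in the *Clu* group than in the *Cnmd* group as well. The *Clu*-group plates ran from 312.3 CPM (plate 9) over a median of 446.9 to 586.9 (plate 4). The *Cnmd*-group plates ran from 103.3 (plate 2) over a median of 133.7 to 348.8 (plate 7), and the next highest was 146.4. Plate 7 of the *Cnmd* group thus lay within the range of the *Clu* group, and the other 7 lay below it. The mean was 451.2 ± 84.0 CPM against 154.6 ± 80.2 (SD, n = 8), a log2 difference of 1.60 (SE 0.22, edgeR adjusted p = 7.4e-06), with the *Clu* group higher on 8 of 8 plates (exact sign-flip test, p = 0.0078). Without plate 7 the log2 difference was 1.79, on plates 1, 2 and 4 alone 2.07, on plates 5 to 9 alone 1.31 and with *Clu* alone against *Cnmd* 1.04, past the threshold in each of these fits.

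The share of cells did not show this difference before depth was made equal. With all UMIs, 35.7% of *Clu*-group cells (31.1 to 40.6%) and 28.5% of *Cnmd*-group cells (23.2 to 34.3%) had *Fzd9*. At 796 UMIs a cell the shares were 24.9% (20.4 to 29.7%) and 8.78% (5.65 to 12.9%). The highest cell held 6 UMIs, 2.78% of the group's total, so the level was not carried by a few cells.

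**Figure D2:**
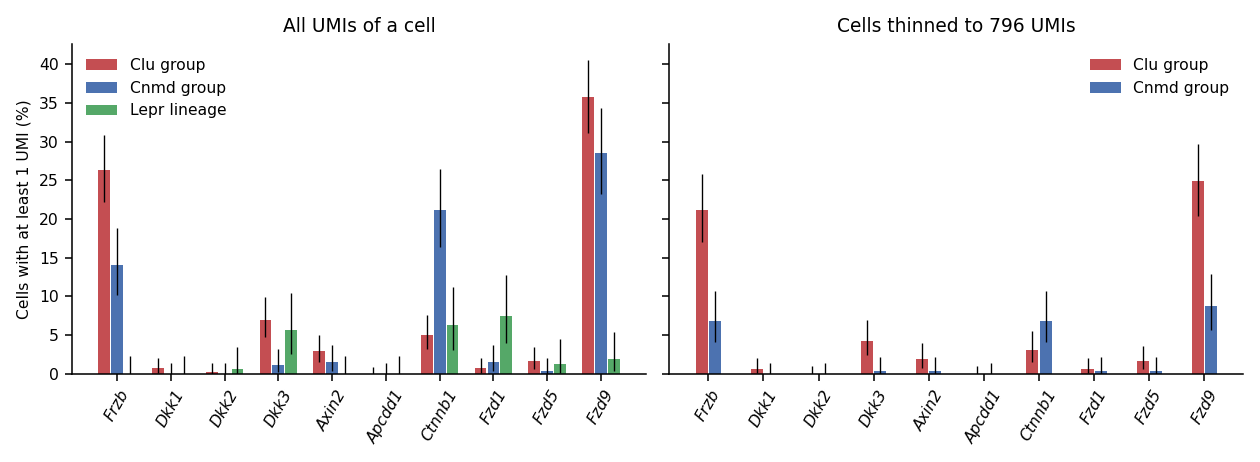
Share of cells with at least 1 UMI of each member (percent, axis from 0, bars with 95% Clopper-Pearson intervals) with all UMIs (left, *Clu* group, *Cnmd* group and *Lepr* lineage) and after thinning each cell to 796 UMIs (right, *Clu* and *Cnmd* group). Thinning takes *Fzd9* in the *Cnmd* group from 28.5 to 8.78% and *Ctnnb1* from 21.1 to 6.87%.

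*Fzd1* (chromosome 5, 4753839 to 4758035, minus strand) ran the other way. It had 12 UMIs in 12 of 160 *Lepr*-lineage cells (7.5%, interval 3.94 to 12.7%) and 7 in 7 of 684 *Grem1*-lineage cells (1.02%, interval 0.412 to 2.10%), in the shallower lineage the higher share. The *Lepr*-lineage plates had 96.7 and 51.1 CPM, above all *Grem1*-lineage plates (0 to 14.8, median 6.65), of which 5 had a UMI. The exact permutation test of 2 against 8 plates gave p = 0.0222, the smallest possible, and as a share of UMIs *Fzd1* was 16.3 times higher in the *Lepr* lineage (5.92 to 48.9). It did not pass the filter on low counts. With no filter its log2 difference was 3.15 (SE 0.89, edgeR adjusted p = 0.0078), among 8.14% of 13283 genes called. That adjusted p is not on the scale of the filtered fit, where *Frzb* had 0.00052 against 6.8e-13 with no filter (edgeR). *Fzd1* had 3 UMIs in the *Clu* group and 4 in the *Cnmd* group.

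*Fzd5* (chromosome 1, 64730558 to 64737751, minus strand, exons overlapped on the other strand by *Gm38058*) had 7 UMIs in the *Clu* group, 1 in the *Cnmd* group and 2 in the *Lepr* lineage. The *Clu* group was higher on 5 plates and both were at 0 on the other 3 (exact sign-flip test, p = 0.0625, the smallest that 5 plates allow).

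Of the intracellular members, *Ctnnb1* (chromosome 9, 120929216 to 120960507, plus strand) had 23 UMIs in the *Clu* group, 66 in the *Cnmd* group and 11 in the *Lepr* lineage. Its exons overlap *Ulk4* on the other strand and *Mir7090* on its own, and whether counting used strand is not given in the sources used here. The *Clu*-group plates ran from 0 (plate 5) over a median of 54.7 CPM to 120.9 (plate 6), and the *Cnmd*-group plates from 26.4 (plate 5) over a median of 80.8 to 146.4 (plate 6). The ranges overlapped, and the *Clu* group was the higher on plate 7 alone. The exact sign-flip test gave p = 0.0391, unadjusted, and leaving out any 1 of the plates 1, 2, 4, 5, 6, 8 and 9 gave p = 0.0625 to 0.0781, where 0.0156 is the smallest p possible. Leaving out plate 7, the plate that went the other way, gave that smallest p. *Ctnnb1* was below the filter here, and in the fit with no filter its log2 difference of -1.02 (SE 0.41) did not pass (edgeR adjusted p = 0.14, and 0.098 with the plate as a block). The share of cells was 5.07% in the *Clu* group and 21.1% in the *Cnmd* group with all UMIs, and 3.11% (1.56 to 5.49%) against 6.87% (4.12 to 10.6%) at 796 UMIs.

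Between the lineages *Ctnnb1* did not pass the test, with 36.3 and 102.1 CPM on the *Lepr*-lineage plates, 18.4 to 150.5 on the *Grem1*-lineage plates, and a log2 difference of -0.25 (SE 0.67, edgeR adjusted p = 0.81). Its sign turned to 0.22 without *Lepr*-lineage plate 1.

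*Axin2* (chromosome 11, 108920349 to 108950783, plus strand, exons overlapped on the other strand by *Gm11670*) had 14 UMIs in 12 *Clu*-group cells, 5 in 4 *Cnmd*-group cells and 0 in the *Lepr* lineage. The *Clu*-group plates ran from 0 to 82.1 CPM (plate 7) and 3 were at 0. The *Cnmd*-group plates ran from 0 to 31 (plate 2) and 5 were at 0. The *Clu* group was the higher on 5 plates, both were at 0 on 2, and the exact sign-flip test gave p = 0.0938. The *Grem1*-lineage level (18.2 ± 18.7 CPM) is below what 3 UMIs a plate would give in the *Lepr* lineage, so a difference in *Axin2* was not detectable at this depth (exact permutation test, p = 0.27).

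In all, 4 members passed the filter in the comparison of lineages and 2 of them, *Frzb* and *Fzd9*, passed edgeR's test, both higher in the *Grem1* lineage (28.9% of 2944 genes were called). In the comparison of cell groups 2 members passed the filter and both passed the test, higher in the *Clu* group (40.9% of 1071 genes were called). Since a member passes the filter through the group where it is high, these counts are read as descriptions. Of the 9 members with a UMI, single-value tests gave an unadjusted p under 0.05 for *Frzb*, *Fzd9* and *Fzd1* between lineages and for *Frzb*, *Fzd9*, *Dkk3* and *Ctnnb1* between cell groups. Over all genes with a UMI the same tests gave such a p for 15.3% of 13283 genes between lineages and 11.2% of 12510 between cell groups, so these counts too are descriptions. How many of all genes had plates that did not overlap was not counted, so a lack of overlap of any gene named here is a description as well.

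**Figure D3:**
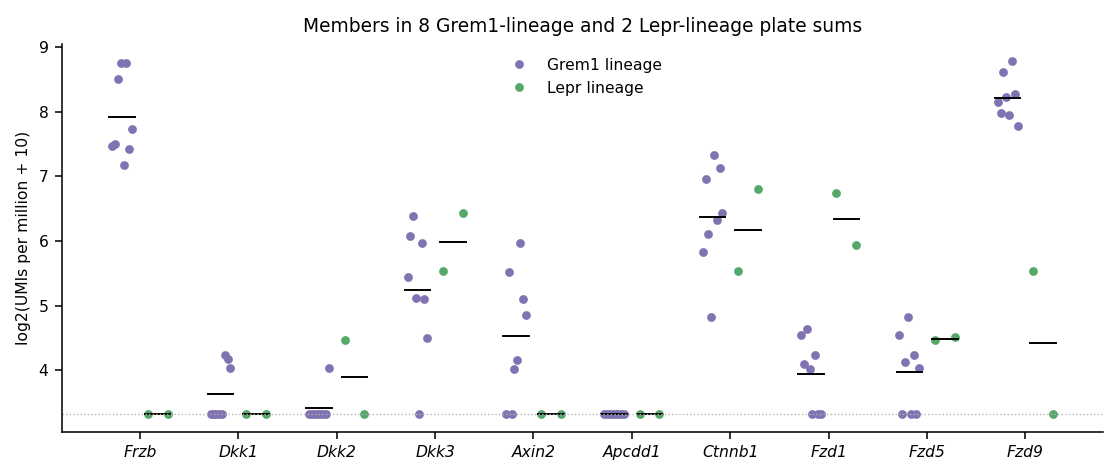
Level of each member as log2(CPM + 10) in the 8 *Grem1*-lineage plates (purple) and the 2 *Lepr*-lineage plates (green), each point 1 plate, with black lines for the means. The dotted line is a level of 0. *Frzb* and *Fzd9* lie above the *Lepr*-lineage plates on all *Grem1*-lineage plates and *Fzd1* below them.

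Other cell type markers moved with the cell groups. The 10 chondrocyte markers summed to 52060 to 74200 raw CPM on the *Clu*-group plates and 109000 to 144000 on the *Cnmd*-group plates. *Col2a1* led in the *Cnmd* group, with 45166 UMIs against 7520 in the *Clu* group. *Chad* led in the *Clu* group and went the other way, with 15822 UMIs against 7498. In the fit with no filter *Comp* did not pass (log2 difference 0.42, edgeR adjusted p = 0.23), and the remaining markers were lower in the *Clu* group. Fibroblast markers (4 of 5 detected, *Clec3b* at 0) summed to 17040 to 23440 and 1520 to 3195 raw CPM, of which *Dcn*, also a cartilage proteoglycan, made up 10376 of 10505 UMIs in the *Clu* group. Endothelial markers had 2 and 7 UMIs in all, with *Cldn5*, *Egfl7*, *Emcn* and *Flt1* at 0 in both, and marrow stromal markers 121 and 175 UMIs. Mural markers were at 267.1 to 645.5 and 376.3 to 724.0 raw CPM. Haematopoietic markers stood at 0 to 3284 raw CPM on the *Clu*-group plates and 0 to 4387 on the *Cnmd*-group plates. The part of these RNAs in the members' levels was not tested.

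*Frzb* and *Fzd9* were both higher in the *Clu* group, and most cells with either had a UMI of only 1 of them. Of 414 *Clu*-group cells, 42 had both, 67 *Frzb* alone, 106 *Fzd9* alone and 199 neither. *Fzd9* was present in 38.5% of cells with *Frzb* and 34.8% of those without, whose median depths were 1426 and 1112 UMIs. At 796 UMIs a cell these shares were 22.7% and 25.4%. *Dkk3* was present in 6 cells with *Frzb* and 23 without. Joint detection is limited by these low counts, and no test was made.

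*Frzb*, *Fzd9* and *Dkk3* were also set out by other transcripts of the *Clu* group. *Clu*-group cells with a *Cd200* UMI (232) had 527.3 raw CPM of *Frzb* and those without (182) 252.9. *Fzd9* was at 403.8 and 414.7 and *Dkk3* at 45.2 and 101.2. Cells with a *Foxo1* UMI (141) had 486.8 raw CPM of *Frzb* and those without 389.9. There *Fzd9* was at 413.5 and 404.7 and *Dkk3* at 52.3 and 73.8. Cells with more *Col10a1* than the median of 1 UMI (158) had 531.7 raw CPM of *Frzb*, 355.9 of *Fzd9* and 27.0 of *Dkk3*. The other cells had 347.8, 445.3 and 94.3. The cells that held each of these transcripts were the deeper ones (median 1337 to 1394 UMIs against 975 to 1156), and these are values over cells of all plates, given with no test.

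Levels like those of the members were sought over the 16 cell-group sums and 2 *Lepr*-lineage sums, as the smallest root mean square difference of centred log2(CPM + 10). *Frzb* was nearest to *Enpp2* (1.07), *Cpe* (1.09) and *Adgrg2* (1.14), against its own SD of 2.14. *Fzd9* was nearest to *4930523C07Rik* (0.55), *Aff3* (0.60) and *Bag3* (0.60), against 1.48. *Ctnnb1* was nearest to *Gm15694* (0.66), *Gm11826* (0.71) and *Gm20072* (0.73), against 1.03.

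The rest of the pathway was described from lists of inhibitors, receptors, cytoplasmic transduction, nuclear co-factors, target genes and ligands. Beside the 10 members, 62 of 138 list genes were listed for both lineages and none of them was a ligand. By name these came early in the alphabet, up to *Gja1*, and those listed for the *Lepr* lineage alone came later, from *Gsk3a*. The lack of ligands among the shared genes thus follows the listing and says nothing of expression. Between the lineages 24 of the 62 were tested, of which 2 were higher in the *Lepr* lineage, 6 were lower and 16 did not pass, with a median log2 difference of 0.22 against -0.11 over all genes tested. Over all genes tested 12.2% were higher and 16.7% lower in the *Lepr* lineage, 28.9% together, so the 8 of 24 stood near the background. Between the cell groups 4 were tested, of which 2 were higher in the *Clu* group, none was lower and 2, *Crebbp* and *Gja1*, did not pass, with a median of 0.56 against 0.02. Over all genes tested 20.8% were higher and 20.1% lower in the *Clu* group, 40.9% together, and a count of 2 of 4 is not a result about the lists.

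*Ccnd2*, which encodes cyclin D2, had 581 UMIs in the *Clu* group and 92 in the *Cnmd* group, 803.4 to 1865 against 31.4 to 348.8 CPM by plate with no overlap, and a log2 difference of 3.24 (SE 0.33, edgeR adjusted p = 1.3e-07). *Csnk1a1*, a kinase of the β-catenin destruction complex, was higher in the *Clu* group by 0.61 (SE 0.19, edgeR adjusted p = 0.013), with overlapping plates. *Ccnd1*, which encodes cyclin D1, was below the filter there, and in the fit with no filter it was lower in the *Clu* group by a log2 difference of -1.69 (SE 0.47, edgeR adjusted p = 0.0094). It was named after its values were seen, and its adjusted p is not on the scale of the filtered fit.

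Between the lineages, the list genes lower in the *Lepr* lineage with the largest differences beside *Frzb* and *Fzd9* were *Ccnd1*, *Cxxc5*, *Dixdc1*, *Ccnd2* and *Crebbp*. *Ccnd1* had 0 UMIs in the *Lepr* lineage and 26.3 to 140.6 CPM on the *Grem1*-lineage plates (edgeR adjusted p = 0.01). *Cxxc5*, a binder of Dishevelled, had a log2 difference of -2.26 (SE 0.63, edgeR adjusted p = 0.013), and *Dixdc1*, a DIX domain protein, of -2.23 (SE 0.75, edgeR adjusted p = 0.036), each on 3 UMIs in the *Lepr* lineage. *Ccnd2* differed by -1.42 (SE 0.43, edgeR adjusted p = 0.021) and *Crebbp*, a histone acetyltransferase that β-catenin recruits, by -1.20 (SE 0.42, edgeR adjusted p = 0.042). The 2 that were higher in the *Lepr* lineage were *Bmp4*, at 145.0 and 166.0 against 0 to 35.8 CPM (log2 difference 3.26, SE 0.66, edgeR adjusted p = 0.0015), and *Gja1*, which encodes connexin 43, at 1100 and 1455 against 291.1 to 630.3 CPM (log2 difference 1.50, SE 0.26, edgeR adjusted p = 0.00044).

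**Figure D4:**
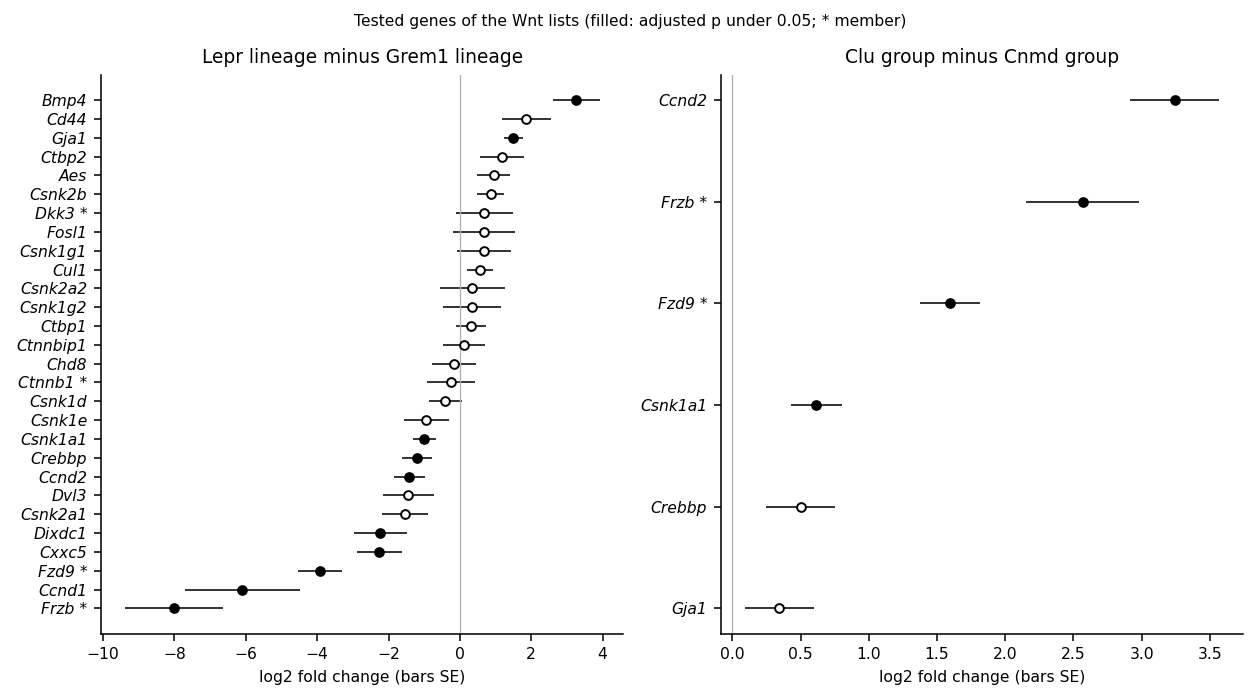
Log2 fold change with SE (edgeR) of the tested genes of the Wnt lists, *Lepr* minus *Grem1* lineage (left, 28 genes) and *Clu* minus *Cnmd* group (right, 6 genes). Filled points have an adjusted p under 0.05 and stars mark members. The point of a gene with 0 UMIs in 1 lineage (*Frzb*, *Ccnd1*) depends on the prior count and is no measure of size.

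A further 72 list genes were listed for the *Lepr* lineage alone and were not analysed in the *Grem1* lineage, so for these no comparison was made. Of them, 45 had a UMI and 17 were in at least 10 of the 160 cells. The secreted antagonist *Sfrp4*, a relative of *Frzb*, had 275 UMIs in 103 cells (64.4%, interval 56.4 to 71.8%), at 560.6 and 1278 raw CPM (of all genes listed for this lineage) on plates 1 and 2. *Wif1* had 33 UMIs in 23 cells, *Sfrp1* 23 in 16 and *Znrf3*, a ligase that removes Frizzled, 13 in 12.

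Among the receptors listed there, *Lgr5*, a receptor of R-spondins and itself a target, had 235 UMIs in 95 cells (59.4%, interval 51.3 to 67.1%), at 692.9 and 859.2 raw CPM on the same scale. *Lrp4* had 211 UMIs in 29 cells, of which 116 were in 1 cell. The co-receptors *Lrp5* and *Lrp6* had 46 UMIs in 13 cells and 10 in 10, and *Ryk* 11 in 10. Of the targets, *Wisp2* was in 41 cells and *Tnfrsf19* in 32. The cytoplasmic genes *Gsk3b* and *Ppp2ca* were in 29 and 16 cells, and the nuclear factors *Tcf7l2* and *Tcf7l1* in 25 and 17. Of the 25 ligand and secretion genes 18 were at 0. *Wls*, which carries Wnt ligands to the cell surface, had 40 UMIs in 29 cells, and *Rspo3*, an R-spondin, 17 in 14.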

How the data were processed

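Single cells of 10 plates were measured by UMI-tagged RNA-seq. The deposited values are whole-number UMI counts per gene and well that the authors made without normalisation. The submitters' processing notes name UMI-tools, STAR, featureCounts, SAMtools, Seurat and mm10, without versions. Whether counting used strand is not given in the sources used here. Plates were assigned to lineages from the labels. The *Grem1*-lineage table was used for 29183 genes (1 incomplete row was left out), and the *Lepr*-lineage table lists 50508, so 40.9% of *Lepr*-lineage UMIs fell in shared genes.

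The gene minimum was 350 per cell over each table's own genes, and UMIs were summed per plate, and in the *Grem1* lineage also per plate and group. The 4 cells with equal sides were placed in the *Cnmd* group. Sums were tested in R 4.3.3 with edgeR 4.0.16 (TMM, filterByExpr, quasi-likelihood test, Benjamini-Hochberg at 0.05). The 4 grouping genes were not tested between cell groups. CPM were scaled by TMM separately in each comparison, and raw CPM were not. Both are relative to UMIs over the shared genes, apart from the genes listed for the *Lepr* lineage alone. Standard errors are the log2 fold change over the square root of F. Single values were tested by exact permutation over plates for the 9 members with a UMI, unadjusted. Intervals are 95% and floors 3 counts, and both cover counting error alone. DESeq2 1.42.0, its size factors, other filters, plates and splits were alternatives. *Clu* and *Cnmd* sums of a plate come from 1 library and deviated together (correlation across genes 0.175 to 0.442, over 0.1 on 8 of 8 plates).

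Members and lists were chosen with earlier results of these data known. Beyond members, the rule named the 5 list genes with the largest differences in each direction past the threshold, *Lepr*-only genes in at least 10 cells, and the 3 genes nearest to each member with at least 50 CPM. In simulated lineage counts (2651 genes) 60.9% of 4-fold and 14.5% of 2-fold changes were recovered, and in simulated cell-group counts (1030 genes) 100% and 80.2%. Of unchanged genes 3 of 2481 and 7 of 870 were called. The simulated sums were independent, with a common dispersion for all genes and no plate effect, unlike the real sums, so these rates may not hold for them. Coordinates are from GENCODE vM21 (GRCm38) and promoters from RefSeq (GRCm38.p6).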

Additional observations from a re-analysis of the deposited data

Results flagged for a closer look

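Of 25 sets of 8 plates (a member in a cell group or in the *Grem1* lineage), 5 had 1 plate far from the others by Dixon's test. The test's rate of 1 in 20 holds for normally spread values. A set with a UMI on 1 plate alone is always flagged, so the count cannot be set against that rate. *Fzd9* in the *Cnmd* group of plate 7 was at 348.8 CPM (21 UMIs), with the other 7 plates at 103.3 to 146.4. The other 4 rest on 1 or 2 UMIs. They are *Dkk2* on plate 9 at 18.4 CPM in the *Clu* group and 6.35 CPM in the *Grem1* lineage, which is the same UMI, *Dkk3* in the *Cnmd* group of plate 2 at 20.7 CPM, and *Fzd5* in the *Cnmd* group of plate 5 at 8.81 CPM.

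The 84 *Grem1*-lineage wells below the gene minimum held 39804 UMIs (median 501.5 a well). Among these were 17 of *Fzd9* in 13 wells, 12 of *Frzb* in 8 wells and 6 of *Ctnnb1* in 6 wells, each above the 3 counts that a count of 0 allows. The 2 *Lepr*-lineage wells left out had none of the members.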

How the results depend on the processing

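*Frzb* and *Fzd9* kept their direction and their side of the threshold under all 19 alternatives between lineages and all 21 between cell groups. Between cell groups the log2 difference of *Frzb* ranged from 1.50 (*Clu* alone against *Cnmd*) to 3.52 (plates 1, 2 and 4), with edgeR or DESeq2 adjusted p from 7.7e-21 to 0.0035. The lowest came from the fit with no filter and the plate as a block, whose adjusted p-values are on another scale. For *Fzd9* the log2 difference ranged from 1.04 to 2.07. Members past the threshold numbered 2 or 3 throughout. Over the same settings 8.14 to 31.1% of all genes tested were called between lineages and 5.62 to 46.5% between cell groups. The count of members is thus a description. Of all genes, 851 differed between lineages, 436 with plates 1 and 2 alone and the replicate block, 451 with the same plates and no block, and 529 to 849 with 1 plate left out, the lowest without *Lepr*-lineage plate 2. Those fits had fewer plates. Between cell groups 438 differed, 703 with no filter on low counts, where 12510 genes were tested, and 236 on plates 1, 2 and 4 alone. With the plate as a replicate block 498 differed, and 775 with the block and no filter, a fit added after the data were seen. The pairing changed the call of neither *Frzb* nor *Fzd9*, nor, in the fits with no filter, those of *Dkk3* and *Ctnnb1*. *Ctnnb1* between lineages turned from -0.25 to 0.22 without *Lepr*-lineage plate 1 (-1.21 to 0.22 over plates left out), and the cause was not tested. The exact test of *Frzb* between lineages gave p = 0.0556 without any 1 *Grem1*-lineage plate other than 6. Without plates 5 and 7, an alternative chosen after the data were seen, *Dkk3* between cell groups had p = 0.0625 in the exact permutation test, the smallest it could reach there, since 1 of the 6 plates left was at 0 in both groups. Of 20 shares of cells, 10 left their interval after thinning and 0 with no gene minimum. Depth limits *Dkk1*, *Dkk2*, *Apcdd1*, *Fzd1*, *Fzd5* and *Axin2*, which had at most 19 UMIs in a lineage.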
